A study of Mus musculus with 16 samples.

Results

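The genes described here code for carriers of 6 solute carrier families that move sugars, ions and nucleosides across cell membranes: Slc2a, Slc5a, Slc9a, Slc12a, Slc26a and Slc28a. They are the protein-coding genes whose symbols bear these family names, with Slc2a1 left out, and there were 54 of them among the 46078 genes counted. Slc2a, Slc5a and Slc26a held 11 carriers each, Slc9a and Slc12a 9 each, and Slc28a 3.

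Slc2a carriers (the GLUT proteins) let hexoses pass down their gradient, while Slc5a carriers (the SGLT proteins and their relatives) couple the uptake of sugars, inositols and vitamins to sodium. In the small intestine Slc5a1 takes up glucose and galactose and Slc2a5 takes up fructose at the brush border, and Slc2a2 carries hexoses across the basolateral membrane towards the blood. Slc9a proteins exchange sodium for protons, and Slc26a proteins exchange anions such as chloride, bicarbonate, sulfate and oxalate. At the brush border Slc9a3 (NHE3) and Slc26a3 (DRA) work side by side in salt absorption. Most Slc12a proteins move chloride together with potassium, sodium or both, and Slc12a2 (NKCC1) loads crypt cells with the chloride that they secrete. Slc28a proteins take up nucleosides with sodium.

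The data are 16 RNA-seq libraries from organoids, epithelial structures that grow in a gel from mouse intestinal crypts. Organoids with the genotype labels Apc mutant and wild type were set side by side, with or without conditioned medium, that is medium taken from other organoid cultures. The 6 groups were untreated Apc mutant organoids on day 2 and untreated wild type organoids on day 2 (2 libraries each), APCCM and WTCM libraries on day 4 (3 each), and APCCM and WTCM libraries on day 2 (3 each). Per the protocols in the labels, all crypts came from C57BL6 mice with a tamoxifen-inducible Cre, and every culture received EGF, R-spondin and Noggin. Wild type organoids carried Lgr5-EGFP-IRES-CreERT2 alone, with a red mCherry construct. Mutant organoids carried the same Cre with floxed Apc, recombined in culture by 4OH-tamoxifen, and a green Venus construct. Villin-CreERT2 Apc fl/fl mice are also named as a source, and which libraries came from them is not given in the labels. Nothing in the labels says whether replicates were separate cultures or animals, so the p-values below measure only the spread between these libraries, which may be technical.

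APCCM and WTCM are the title words of the libraries with genotype labels Apc mutant and wild type in conditioned medium. Their treatment label is Apc mutant medium in all 12. Notum, a target gene of the Wnt pathway that Apc restrains, had 258 to 312 CPM (counts scaled to a common library size) in untreated Apc mutant libraries and at most 1.03 CPM in any other library, APCCM included. The genotype label of the APCCM libraries is therefore not borne out by this target, and they are named by their title word throughout. Per the protocols, the conditioned medium was taken from wild type or from Apc mutant cultures, so the title words could name the organoids or the source of their medium, and these cannot be told apart from the labels. APCCM minus WTCM is therefore given as a difference between title groups. Apc itself had 217 to 249 CPM in untreated Apc mutant and 69.3 to 76.1 CPM in untreated wild type libraries. It had 252 to 281 CPM in APCCM and 237 to 269 CPM in WTCM libraries over both days, and whole-gene counts do not read the recombined part separately. Depth ran from 8325979 to 29152692 gene counts per library, with at most 13027701 in the untreated ones. WTCM day 4 replicate 1 stood apart from the rest of its group, with a chi-square per degree of freedom of 39.9 and 42.2 against its companions, where the other 12 pairs of libraries within a group had 3.30 to 6.08. In that library 33.3% of reads had several alignments, against 30.1% and 28.5% in the other WTCM day 4 libraries. Without it the number of carriers past the threshold was 13 in place of 17 for APCCM against WTCM on day 4 (6 higher and 7 lower), 12 in place of 13 between the days in WTCM libraries, and 3 in place of 4 for the difference between days. The carriers lost without it were Slc2a9, Slc5a3, Slc5a9, Slc12a7 and Slc26a3 on day 4, Slc26a11 between the WTCM days, and Slc5a1 for the difference between days. Histone cluster genes summed to 4427 to 6155 CPM in conditioned medium and to 41.5 to 46.2 CPM without it, so no difference between untreated and conditioned medium libraries was tested. Enterocyte markers (Alpi, Sis, Lct, Fabp2, Apoa4 and Anpep) were all detected in every group. Kidney markers summed to 0.746 to 3.36 CPM per library, with Umod and Aqp2 at 0 in every group, Pax8 at a mean of 1.02 to 2.97 CPM, Cdh16 at 0.0306 to 0.576 CPM and Lrp2 at no more than 0.117 CPM. Immune markers summed to at most 7.77 CPM and endothelial and neural markers to at most 5.20 CPM in any library.

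Of the 54 carriers, 38 passed the filter on low counts and were tested, 26 reached a mean of 10 CPM in at least 1 group, and 7 reached 100 CPM. The 16 that did not pass had at most 0.517 CPM in any library. They were Slc2a3, Slc2a12, Slc2a13, Slc5a2, Slc5a5, Slc5a7, Slc5a8, Slc5a10, Slc5a12, Slc9a7, Slc12a1, Slc12a3, Slc26a5, Slc26a7, Slc26a8 and Slc26a10. Among them are the renal carriers Slc5a2 (SGLT2), Slc12a1 (NKCC2) and Slc12a3 (NCC). Slc5a8, a sodium-coupled monocarboxylate carrier of the colon, had between 0 and 6 counts per library in all 16 libraries. Slc2a13, Slc5a7 and Slc26a7 had no count in any library.

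Per kilobase of exon, Slc12a2 stood first among the carriers in untreated Apc mutant organoids with 58.4 CPM per kb, while Slc12a8 had 9.43 and Slc5a1 7.17 CPM per kb. In the other 5 groups Slc5a1 stood first and Slc12a2 second. Slc5a1 had 212 CPM per kb in untreated wild type, 274 in APCCM day 4, 376 in WTCM day 4, 228 in APCCM day 2 and 245 in WTCM day 2 libraries. Slc12a2 had 96.3, 127, 183, 147 and 153 CPM per kb in the same order of groups. These 2 genes therefore set most of the summed level of their families, except for Slc5a1 in untreated Apc mutant libraries. Slc5a1 made up 45.2% of the Slc5a sum in untreated Apc mutant libraries and 91.9 to 95.4% in the other groups, and Slc12a2 made up 76.7 to 86.5% of the Slc12a sum.

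By family, the summed level of the Slc2a carriers was 22.2 ± 2.91 CPM in untreated Apc mutant and 192 ± 7.92 CPM in untreated wild type organoids (SD, n = 2 each, as for the other sums of untreated libraries). The Slc5a sum was 65.2 ± 1.01 CPM in Apc mutant against 929.7 ± 32.8 CPM in wild type, the Slc26a sum 97.5 ± 7.36 CPM in Apc mutant against 412 ± 24.4 CPM in wild type, and the Slc28a sum 0.265 ± 0.115 CPM in Apc mutant against 19.5 ± 3.10 CPM in wild type. In these 4 families no mutant library came near a wild type one. The Slc12a sums, 831 ± 58.0 CPM in Apc mutant against 1288 ± 64.3 CPM in wild type, and the Slc9a sums, 178 ± 2.83 CPM in Apc mutant against 210.3 ± 2.62 CPM in wild type, lay closer together. In conditioned medium the Slc28a sum was 9.08 ± 0.270 CPM in APCCM and 15.0 ± 0.691 CPM in WTCM libraries on day 2, and 16.3 ± 0.797 CPM in APCCM against 17.2 ± 0.641 CPM in WTCM libraries on day 4 (SD, n = 3 each).

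**Figure D1:**
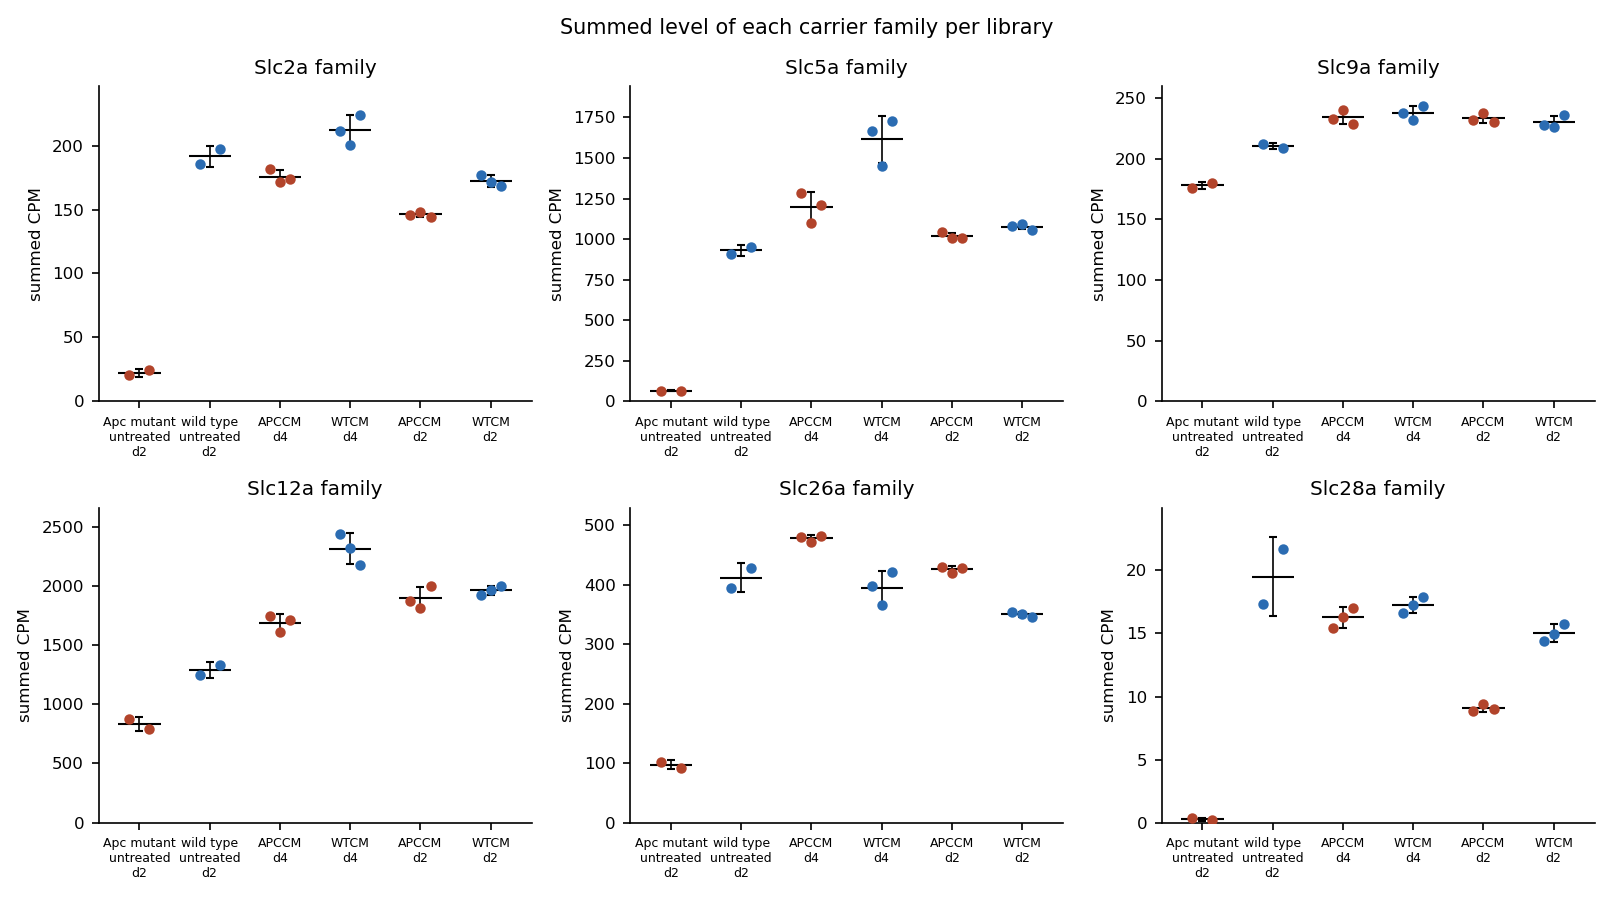
Summed CPM of each carrier family in every library (points), with the group mean (bar) and SD (whiskers), for the 6 groups; d2 and d4 are days 2 and 4. The Slc28a sum of untreated Apc mutant organoids, 0.265 CPM, lies at the bottom of its panel, and the Slc9a sums differ least between the groups.

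Untreated Apc mutant organoids held far less RNA than untreated wild type organoids of the hexose carriers Slc5a1, Slc2a2 and Slc2a5, of the anion exchangers Slc26a3 and Slc26a6, and of all 3 nucleoside carriers. Of the 38 carriers tested, 30 had an adjusted p under 0.05 (Benjamini-Hochberg) in edgeR's quasi-likelihood test, 19 lower and 11 higher in the mutant. Over all genes tested 62.5% passed, 30.1% lower and 32.4% higher. Slc9a9, Slc12a4 and Slc26a9 passed the low count filter through the Apc mutant libraries alone, so the 11 higher calls are not independent of it. Without the filter 10 carriers were higher and 20 lower. The higher carriers depended on single libraries, with 6 of them (and 22 lower) without Apc mutant replicate 5 and 7 (and 20 lower) without wild type replicate 4. The median log2 fold change of the 38 carriers was -0.57, against 0 over all genes. All 3 Slc28a carriers and 4 of 5 Slc5a carriers tested were lower, and none of them was higher. Slc2a had 4 of 8 lower and 1 higher, Slc9a 2 of 8 lower and 3 higher, Slc12a 3 of 7 lower and 3 higher, and Slc26a 3 of 7 lower and 4 higher.

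The start regions of 3 of these carriers are shown because Slc5a1, Slc2a2 and Slc26a3 are enterocyte carriers at the centre of the lower group. The sequences are RefSeq's (GRCm38.p6), 250 bases before to 50 bases after the annotated start, and all lie on the plus strand. Slc5a1 (ENSMUSG00000011034) is shown at chr5:33103969-33104268, Slc2a2 (ENSMUSG00000027690) at chr3:28697653-28697952 and Slc26a3 (ENSMUSG00000001225) at chr12:31437969-31438268. In GENCODE M21 these genes span chr5:33104219-33162870, chr3:28697903-28731359 and chr12:31390871-31473917, so the RefSeq start of Slc26a3 lies inside the GENCODE gene. Capitals mark matches to 4 short motifs searched on both strands, GTTAAT of HNF1, TTTATG of CDX, TGATAA of GATA factors and ATCAAAG of TCF/LEF, and no matches overlapped.
Slc5a1: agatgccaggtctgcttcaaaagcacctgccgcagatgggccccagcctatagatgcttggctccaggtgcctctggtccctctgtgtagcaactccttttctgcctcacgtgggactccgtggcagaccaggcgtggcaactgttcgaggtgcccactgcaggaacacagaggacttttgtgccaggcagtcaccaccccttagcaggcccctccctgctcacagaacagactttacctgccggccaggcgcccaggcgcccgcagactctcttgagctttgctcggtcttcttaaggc
Slc2a2: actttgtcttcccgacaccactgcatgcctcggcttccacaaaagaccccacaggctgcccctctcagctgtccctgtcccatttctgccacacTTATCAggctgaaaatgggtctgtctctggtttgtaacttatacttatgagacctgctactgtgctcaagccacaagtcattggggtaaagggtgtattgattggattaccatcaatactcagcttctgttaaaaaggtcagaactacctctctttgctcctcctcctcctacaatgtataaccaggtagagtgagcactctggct
Slc26a3: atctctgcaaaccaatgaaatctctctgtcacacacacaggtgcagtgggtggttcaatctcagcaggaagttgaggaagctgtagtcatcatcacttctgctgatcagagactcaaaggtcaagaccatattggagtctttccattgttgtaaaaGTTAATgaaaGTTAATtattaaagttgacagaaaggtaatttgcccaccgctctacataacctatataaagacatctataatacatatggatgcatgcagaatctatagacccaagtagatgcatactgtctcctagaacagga
Slc5a1 held none of the 4 motifs in this window. Slc2a2 held the GATA motif on the reverse strand (TTATCA), 156 bases before the start. Slc26a3 held GTTAAT at 94 and at 84 bases before the start. RefSeq gave a start region for 15 of the 19 lower carriers, with 19 regions in all. GTTAAT stood in 15.8% of these 19 regions (Slc12a8, Slc26a3 and Slc28a2) and in 7.10% of all 32851 regions. TGATAA stood in 10.5% (Slc2a2 and Slc2a7) against 9.05%, TTTATG in 10.5% (Slc12a8 and Slc28a2) against 11.9%, and ATCAAAG in 0% against 3.73%. These are matches of letters, and binding was not measured.

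The hexose carriers of the enterocyte were far lower in untreated mutants. Slc5a1, the sodium-coupled glucose and galactose carrier, had 28.9 and 30.0 CPM in Apc mutant organoids, against 845 and 891 CPM in wild type organoids. The groups stood far apart, and the log2 fold change was -4.88 (SE 0.09, adjusted p = 6.6e-24), a 29.5-fold lower level. Slc2a2 (GLUT2) had 0.416 and 0.122 CPM in Apc mutant organoids, against 86.7 and 102 CPM in wild type organoids. That was 353-fold lower, with a log2 fold change of -8.46 (SE 0.18, adjusted p = 1.5e-22). Slc2a5 (GLUT5), the fructose carrier, had 0.901 and 0.978 CPM in Apc mutant organoids, against 71.8 and 69.4 CPM in wild type organoids. It was 74.5-fold lower (log2 fold change -6.22, SE 0.17, adjusted p = 2.3e-20), and for none of these 3 genes did a mutant library come near a wild type one. Slc2a7 (GLUT7), another intestinal family member, had no count in Apc mutant libraries and 6.21 and 3.93 CPM in wild type ones. Set against a floor of 3 counts over the mutant group, it was at least 53.7-fold lower (adjusted p = 1.2e-10).

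The other sugar, inositol and vitamin carriers did not move as one. Slc5a11, a sodium-coupled inositol carrier, had no count in Apc mutant libraries and 6.37 and 6.22 CPM in wild type ones, at least 64.7-fold lower in the mutant (adjusted p = 1.8e-12). Slc2a10 (GLUT10) had 0.208 and 0 CPM in Apc mutant libraries and 2.04 and 1.96 CPM in wild type ones, and the wild type level was 20.6 times the mutant level (95% counting interval 6.60 to 104, counting error only, adjusted p = 2.3e-06). Slc5a6, which takes up biotin and pantothenate, fell by 1.04 on the log2 scale (9.34 ± 0.968 CPM in Apc mutant against 19.4 ± 1.56 CPM in wild type, SD, n = 2 each, adjusted p = 1.8e-06), and Atraid overlaps 9.92% of its exon length on the other strand. Slc5a9 (SGLT4) fell by 0.89 (11.0 ± 0.744 CPM in Apc mutant against 20.3 ± 1.97 CPM in wild type, adjusted p = 4.2e-07). Slc2a8 (GLUT8), a carrier of inner membranes, rose by 0.61 (8.94 and 12.5 CPM in Apc mutant against 8.17 and 5.67 CPM in wild type, adjusted p = 0.0043), and did not pass without Apc mutant replicate 5 (adjusted p = 0.15) or wild type replicate 5 (0.093). Slc5a3, which imports inositol under osmotic stress, did not pass, with 14.8 ± 1.85 CPM in Apc mutant against 15.4 ± 1.15 CPM in wild type (adjusted p = 0.68). Slc2a9 (GLUT9), a urate carrier, did not pass either, with 9.77 ± 0.792 CPM in Apc mutant against 12.1 ± 2.59 CPM in wild type (adjusted p = 0.12). Slc2a4 and Slc2a6 stayed under 1 CPM in every group and did not pass here.

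**Figure D2:**
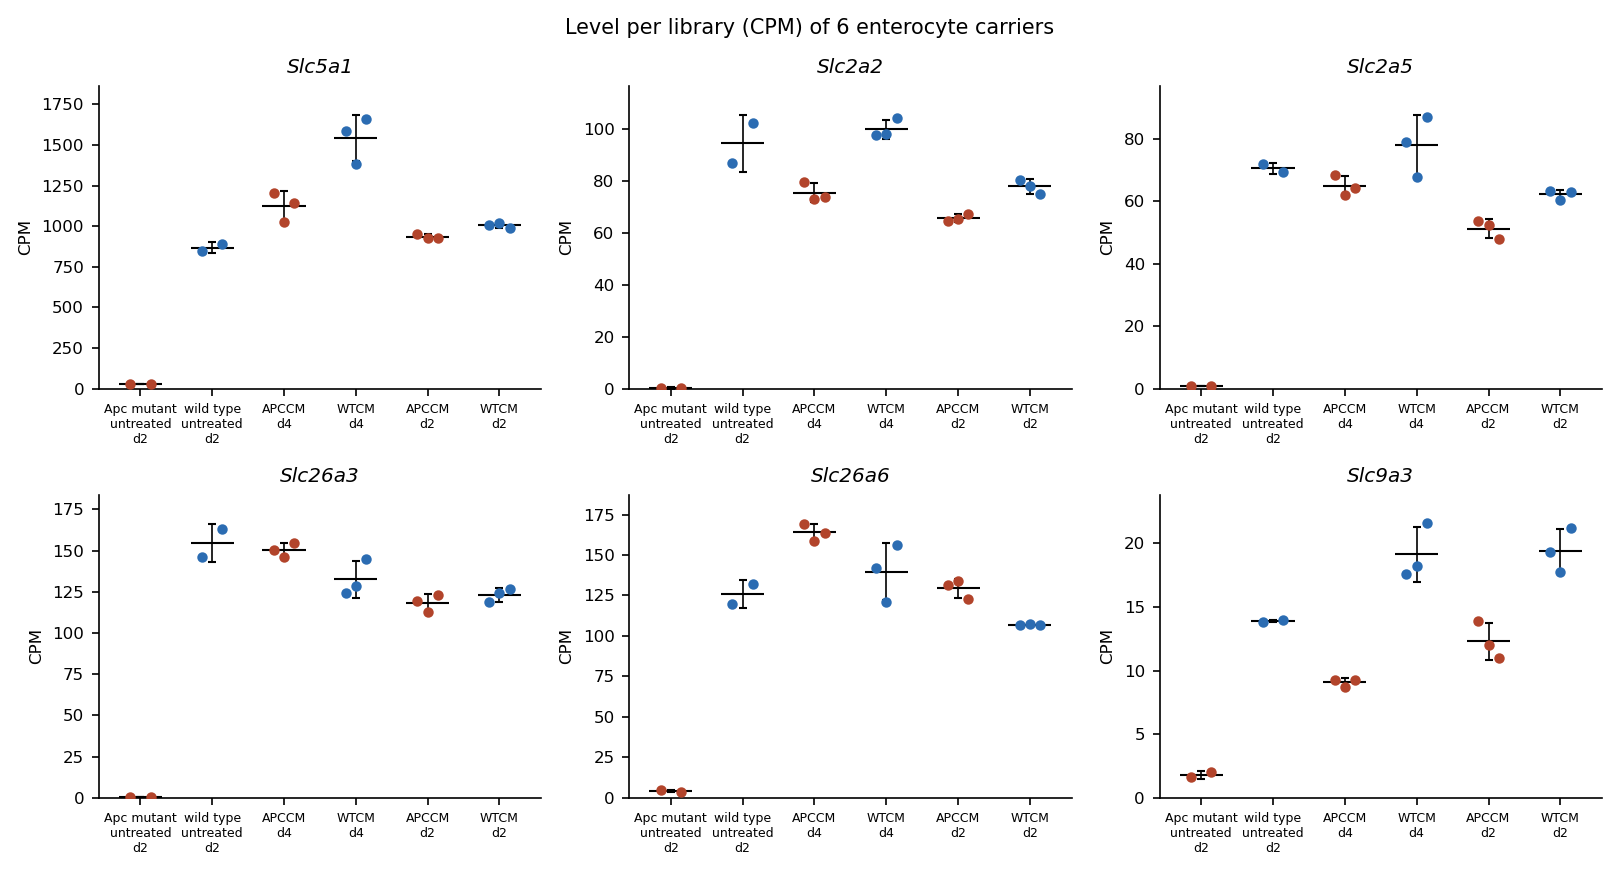
Level per library (CPM, points) of 6 carriers of the enterocyte in the 6 groups, with group mean (bar) and SD (whiskers). In untreated Apc mutant organoids Slc2a2, Slc2a5 and Slc26a3 are under 1 CPM in both libraries, and in untreated wild type organoids no library is below 69.4 CPM for these 3.

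Among the anion exchangers, Slc26a3, the chloride-bicarbonate exchanger whose loss in people causes congenital chloride diarrhoea, had 0.485 and 0.245 CPM in Apc mutant organoids, against 146 and 163 CPM in wild type organoids. The mutant level was 424-fold lower (log2 fold change -8.73, SE 0.16, adjusted p = 1.0e-23). Slc26a6, an apical exchanger of chloride, bicarbonate and oxalate, had 4.50 and 3.61 CPM in Apc mutant organoids, against 119.7 and 132 CPM in wild type organoids. It was 31.1-fold lower (log2 fold change -4.96, SE 0.13, adjusted p = 7.6e-21), and again no mutant library came near a wild type one. The sulfate carrier Slc26a2 had 86.5 and 75.0 CPM in Apc mutant organoids, against 121 and 126 CPM in wild type organoids, a much smaller gap (log2 fold change -0.62, SE 0.08, adjusted p = 2.4e-07). The 4 higher members of this family were low. Slc26a11 had 10.1 ± 1.27 CPM in Apc mutant against 7.43 ± 0.449 CPM in wild type (SD, n = 2 each, log2 fold change 0.46, adjusted p = 0.01). Slc26a4 (pendrin) averaged 1.01 CPM in Apc mutant against 0.136 CPM in wild type, Slc26a1 0.383 CPM in Apc mutant against 0.0545 CPM in wild type and Slc26a9 0.575 CPM in Apc mutant against 0.109 CPM in wild type. With 3 counts or fewer in wild type libraries, their ratios were 7.19 (95% counting interval 2.24 to 36.7), 8.34 (1.23 to 357) and 6.26 (1.50 to 55.6), in that order. Slc26a11, Slc26a1 and Slc26a9 did not pass without Apc mutant replicate 5 or without wild type replicate 4 (adjusted p 0.1 to 0.34). Slc26a9 was also lost without the low count filter, with either replicate block and in DESeq2 (0.055 to 0.17), and Slc26a1 with the untreated libraries fitted alone and in DESeq2 (0.06 to 0.1). Slc26a9 had passed that filter through the Apc mutant libraries alone. Idua on the other strand overlaps 3.48% of the exon length of Slc26a1.

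The sodium-proton exchangers went both ways. Slc9a3 (NHE3), the main brush border exchanger, had 1.59 and 2.02 CPM in Apc mutant organoids, against 13.8 and 14.0 CPM in wild type organoids, 7.61-fold lower (log2 fold change -2.93, SE 0.20, adjusted p = 2.6e-12). Slc9a2 (NHE2), also an apical exchanger, had 23.3 and 24.4 CPM in Apc mutant organoids, against 56.9 and 57.5 CPM in wild type organoids (log2 fold change -1.26, SE 0.08, adjusted p = 9.4e-13). Both apical exchangers were thus lower in each mutant library than in either wild type library. Slc9a4 (NHE4), a basolateral exchanger best known from the stomach, had 18.8 and 15.7 CPM in Apc mutant organoids, against 4.49 and 4.80 CPM in wild type organoids. It rose 3.71-fold (log2 fold change 1.89, SE 0.16, adjusted p = 2.6e-10). The gene models Gm37435 and Gm35801 overlap 16.7% and 4.54% of its exon length on the other strand, and whether counting used strand is not given in the sources used here. Slc9a9 (NHE9) of endosomes had 2.15 and 2.14 CPM in Apc mutant libraries, against 0 and 0.218 CPM in wild type libraries, a ratio of 22.9 (95% counting interval 6.11 to 193, adjusted p = 3.9e-05). It passed the low count filter through the Apc mutant libraries alone. Slc9a8 (NHE8) rose by 0.18 on the log2 scale (61.8 ± 1.82 CPM in Apc mutant against 54.6 ± 1.29 CPM in wild type, SD, n = 2 each, adjusted p = 0.044). That call was lost without any 1 of the 4 untreated libraries (adjusted p 0.051 to 0.16), and with RLE size factors, protein-coding totals, the untreated libraries fitted alone and DESeq2 (0.053 to 0.18). Slc9a5 did not pass.

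The Slc12a carriers also split. Slc12a2 (NKCC1) had 687 and 588 CPM in Apc mutant organoids, against 999.5 and 1104 CPM in wild type organoids. It fell by 0.72 on the log2 scale (SE 0.08, adjusted p = 8.6e-09), so the most abundant carrier of mutant organoids per kilobase was itself lower than in wild type. Slc12a7 (KCC4) fell by 0.51 (68.2 ± 10.2 CPM in Apc mutant against 97.4 ± 6.29 CPM in wild type, SD, n = 2 each, adjusted p = 1.2e-05) and Slc12a8 by 1.14 (41.9 ± 0.573 CPM in Apc mutant against 92.3 ± 0.471 CPM in wild type, adjusted p = 6.6e-13). Slc12a4 (KCC1), the potassium-chloride cotransporter of most cells, had 16.1 and 21.5 CPM in Apc mutant organoids, against 0.163 and 0.109 CPM in wild type organoids. With 3 wild type counts in all, the ratio was 135 (95% counting interval 46.1 to 658, adjusted p = 2.5e-12). Slc12a4 passed the low count filter through the Apc mutant libraries alone. Gm16156 on the other strand overlaps 8.44% of its exon length. Slc12a5 (KCC2), otherwise neuronal, rose by 1.61 (SE 0.47, adjusted p = 0.0046) at a low level, 1.73 and 2.26 CPM in Apc mutant against 0.654 and 0.654 CPM in wild type. Slc12a9 just missed the threshold (adjusted p = 0.05 after rounding).

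All nucleoside carriers were lower in the mutant. Slc28a3 (CNT3), which takes both purine and pyrimidine nucleosides, had no count in Apc mutant libraries and 9.89 and 11.5 CPM in wild type ones, at least 108-fold lower (adjusted p = 1.4e-13). Slc28a1 (CNT1), which prefers pyrimidine nucleosides, also had no count in Apc mutant libraries, against 2.70 and 2.51 CPM in wild type ones, at least 26.8-fold lower (adjusted p = 3.0e-09). Slc28a2 (CNT2), which prefers purine nucleosides, had 0.346 and 0.183 CPM in Apc mutant organoids, against 4.74 and 7.74 CPM in wild type organoids. It was 22.9-fold lower (log2 fold change -4.52, SE 0.39, adjusted p = 2.4e-10), and mutant and wild type libraries did not overlap for any of the 3. With the zero-count genes set at their bounds, the median log2 fold change of the family was -4.75.

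**Figure D3:**
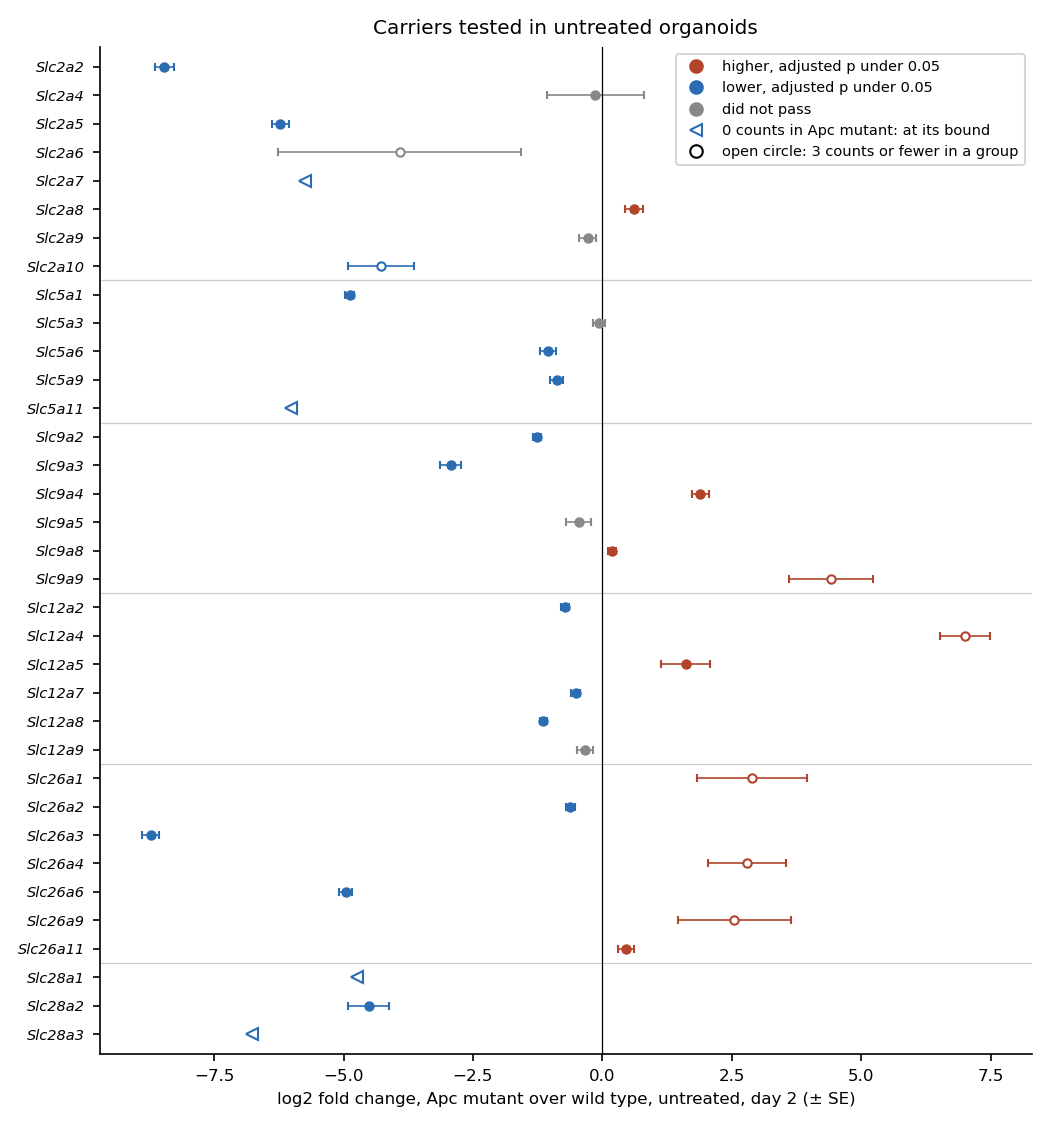
Log2 fold change of 35 of the 38 tested carriers, Apc mutant over wild type, untreated, day 2, with SE. Colours mark carriers past an adjusted p of 0.05, triangles give the bound of the 4 carriers with no count in mutant and more than 3 in wild type libraries, open circles have 3 counts or fewer in a group, and grey lines separate the families. Slc26a3 and Slc2a2 lie furthest left and Slc12a4 furthest right.

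Genes that work with these carriers were counted from 5 lists, of which 55 of 68 tested genes passed in untreated mutants, 37 lower and 18 higher, where 62.5% of all genes did (30.1% lower and 32.4% higher). In sugar handling 11 of 15 tested genes were lower and 2 higher in untreated mutants, among them G6pc (glucose-6-phosphatase), which had no count in the mutant and 24.2 CPM in wild type, at least 248-fold lower. Fbp1, a gluconeogenic phosphatase, averaged 0.169 CPM in Apc mutant against 52.4 CPM in wild type, and Glyctk, a kinase of fructose breakdown, was at least 56.6-fold lower. Among partners of NHE3 and the anion exchangers 9 of 16 were lower and 4 higher. Chp2, which binds sodium-proton exchangers, had 1 count in all in the mutant and 96.2 CPM in wild type, while Car2, a carbonic anhydrase, was higher at 201 CPM in Apc mutant against 19.7 CPM in wild type. The peptide hormone Guca2b averaged 5.58 CPM in Apc mutant against 56.7 CPM in wild type. Of the sodium pump and its coupled channels 7 of 14 were lower and 4 higher, with the potassium channel subunit Kcne3 at 0.353 CPM in Apc mutant against 130.4 CPM in wild type. Scnn1b, a sodium channel subunit, was at least 5.33-fold higher. The wild type level of the water channel Aqp8 was 37.4 times that of the mutant, where it had 1 count (95% counting interval 6.14 to 1533). The WNK-SPAK list holds kinases that set the activity of Slc12a proteins and other genes, such as Klhl2 and Stk26. Of its 8 tested genes 4 were lower and 3 higher. Stk39 (SPAK) had 48.8 CPM in Apc mutant against 100.7 CPM in wild type. Klhl2 had 30.1 CPM in Apc mutant against 51.6 CPM in wild type. Stk26 had 22.2 CPM in Apc mutant against 0.463 CPM in wild type. In nucleoside handling 6 of 15 were lower and 5 higher, with Xdh (xanthine dehydrogenase) at 5.49 CPM in Apc mutant against 95.9 CPM in wild type, Upp1 (uridine phosphorylase) at 1.25 CPM in Apc mutant against 18.1 CPM in wild type and Enpp3 at 1.12 CPM in Apc mutant against 6.88 CPM in wild type.

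Beside these carriers the 6 enterocyte markers summed to 307 to 313 CPM in Apc mutant and 5922 to 6059 CPM in wild type libraries. Nearly all of the mutant sum was Anpep, a peptidase that was higher in the mutant, with a mean of 296 CPM in Apc mutant against 139.7 CPM in wild type. The other 5 were lower, with Alpi at 0.130 CPM in Apc mutant against 1396 CPM in wild type, Sis at 9.95 CPM in Apc mutant against 3061 CPM in wild type and Fabp2 at 4.08 CPM in Apc mutant against 527 CPM in wild type. Apoa4 had 0.0346 CPM in Apc mutant against 866 CPM in wild type, and Lct 0.230 CPM in Apc mutant against 1.01 CPM in wild type. Proximal small intestine markers summed to 131 to 142 CPM in Apc mutant and 1923 to 1980 CPM in wild type libraries. Nearly all of the mutant sum was Gata4, at 135 CPM in Apc mutant against 173 CPM in wild type. Most of the wild type sum was Fabp1, at 0.901 CPM in Apc mutant against 1477 CPM in wild type. Onecut2 had 0.648 CPM in Apc mutant against 262 CPM in wild type, Pdx1 0 CPM against 39.7 CPM, and Cyp8b1 was at 0 in both. The fibroblast list summed to 271 to 287 CPM in Apc mutant and 4.80 to 5.80 CPM in wild type libraries, nearly all of it Vim (277 CPM in Apc mutant against 5.16 CPM in wild type), with Col1a2, Col3a1 and Dcn at 0 in both groups. The part of these differences in the carriers' levels was not tested, and in bulk RNA fewer cells of a type and less RNA per cell cannot be told apart.

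In conditioned medium APCCM libraries had less Slc5a11, Slc9a3 and Slc2a2 RNA and more Slc9a4 and Slc26a2 RNA than WTCM libraries on both days. On day 4, 17 of 38 carriers passed, 8 higher and 9 lower in APCCM, against 15.6% of all genes (7.83% higher and 7.8% lower). On day 2, 17 passed as well, 8 higher and 9 lower, against 16.7% of all genes (8.54% higher and 8.15% lower). The median log2 fold change of the 38 was -0.02 on day 4 and 0.00 on day 2, against 0 over all genes on both days. These comparisons share no library, and 12 carriers passed on both days in the same direction, 70.6% of each day's 17. The matching share over all genes is not given here, so whether this overlap is particular to carriers was not tested. Slc2a2, Slc2a5, Slc2a7, Slc5a11, Slc9a3 and Slc12a7 were lower on both days, Slc5a3, Slc9a2, Slc9a4, Slc12a8, Slc26a2 and Slc26a6 were higher on both, and no carrier passed in opposite directions. The day 4 count moved with single libraries. It was 13 without APCCM replicate 1 (4 higher and 9 lower), 11 without APCCM replicate 2 (4 higher and 7 lower), 10 without APCCM replicate 3 (3 higher and 7 lower), 14 without WTCM replicate 2 (4 higher and 10 lower) and 12 without WTCM replicate 3 (5 higher and 7 lower). Of the 12 carriers that passed on both days, 6 passed on both whichever single library was left out, and these were Slc2a2, Slc5a11 and Slc9a3 among the lower ones and Slc9a2, Slc9a4 and Slc26a2 among the higher ones.

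Among hexose and inositol carriers, Slc2a had 3 of 8 lower and 1 higher in APCCM on each day, and Slc5a had 3 of 5 lower and 1 higher on day 4 and 1 lower and 2 higher on day 2. Slc5a11, the inositol carrier, had 2.20, 1.55 and 1.77 CPM in APCCM libraries, against 6.18, 5.24 and 5.65 CPM in WTCM libraries on day 4. Day 2 levels were 0.972, 0.868 and 0.811 CPM in APCCM libraries, against 4.05, 4.34 and 3.33 CPM in WTCM libraries. The groups were well apart on both days, with log2 fold changes of -1.62 (SE 0.17, adjusted p = 2.1e-07) on day 4 and -2.14 (SE 0.21, adjusted p = 8.1e-08) on day 2. Slc2a2 had 79.5, 72.9 and 73.8 CPM in APCCM libraries, against 97.6, 98.0 and 104 CPM in WTCM libraries on day 4 (log2 fold change -0.41, SE 0.06, adjusted p = 3.3e-05). On day 2 Slc2a2 had 64.5, 65.5 and 67.4 CPM in APCCM libraries, against 80.5, 78.1 and 74.9 CPM in WTCM libraries (-0.24, SE 0.06, adjusted p = 0.0086). Neither day showed overlap for Slc2a2. Slc2a5 had 68.4, 62.2 and 64.4 CPM in APCCM libraries, against 79.1, 67.7 and 87.1 CPM in WTCM libraries on day 4, where the ranges overlapped (log2 fold change -0.26, SE 0.07, adjusted p = 0.0087). On day 2 Slc2a5 had 53.7, 52.4 and 47.8 CPM in APCCM libraries, against 63.2, 60.5 and 63.1 CPM in WTCM libraries without overlap (-0.28, SE 0.07, adjusted p = 0.0076). Slc2a7 fell by 0.72 on day 4 (3.82 ± 0.832 CPM in APCCM against 6.34 ± 0.660 CPM in WTCM, SD, n = 3 each, adjusted p = 0.0033) and by 0.56 on day 2 (3.52 ± 0.388 CPM in APCCM against 5.22 ± 0.407 CPM in WTCM, adjusted p = 0.031).

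Slc5a1 had 1206, 1027 and 1141 CPM in APCCM libraries, against 1588, 1381 and 1658 CPM in WTCM libraries on day 4, with no overlap (log2 fold change -0.46, SE 0.06, adjusted p = 5.0e-06). On day 2 Slc5a1 had 954, 927 and 926 CPM in APCCM libraries, against 1008, 1020.5 and 988 CPM in WTCM libraries, a gap that did not pass (-0.10, SE 0.06, adjusted p = 0.25). Slc5a9 was lower on day 4 (22.7 ± 1.52 CPM in APCCM against 27.2 ± 0.919 CPM in WTCM, log2 fold change -0.26, adjusted p = 0.018), with 21.0 ± 1.30 CPM in APCCM against 20.9 ± 1.21 CPM in WTCM on day 2 (adjusted p = 0.95). In the other direction, the inositol importer Slc5a3 had 27.2, 25.95 and 27.2 CPM in APCCM libraries, against 23.2, 22.7 and 22.8 CPM in WTCM libraries on day 4 (log2 fold change 0.23, SE 0.07, adjusted p = 0.04). On day 2 it had 41.1, 34.5 and 35.4 CPM in APCCM libraries, against 29.0, 28.7 and 29.0 CPM in WTCM libraries (0.36, SE 0.07, adjusted p = 0.0011), so every APCCM library exceeded every WTCM library of its day. The vitamin carrier Slc5a6 was higher on day 2 (23.6 ± 2.04 CPM in APCCM against 17.0 ± 1.64 CPM in WTCM, log2 fold change 0.47, adjusted p = 0.0019), with 21.0 ± 2.16 CPM in APCCM against 18.3 ± 2.43 CPM in WTCM on day 4 (adjusted p = 0.18). Slc2a9 was higher on day 4 (22.4 ± 1.77 CPM in APCCM against 18.2 ± 1.76 CPM in WTCM, log2 fold change 0.30, adjusted p = 0.034). Slc2a6 was higher on day 2, at 0.530 CPM in APCCM against 0.144 CPM in WTCM (adjusted p = 0.042). It passed the low count filter through the APCCM day 2 libraries alone, with 10, 9 and 11 counts. Its place among the 8 higher carriers of day 2 is therefore not independent of the filter.

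Several of these sugar carrier calls rested on single libraries. Slc2a5 did not pass on day 2 without APCCM replicate 3 (adjusted p = 0.076), nor on day 4 without APCCM replicate 2 (0.052) or WTCM replicate 3 (0.11). Slc2a7 did not pass on day 2 without any 1 of APCCM replicates 1 and 2 and WTCM replicates 1 and 2, nor in DESeq2 (adjusted p 0.057 to 0.1). On day 4, Slc2a9 was lost without APCCM replicate 2 or 3 or WTCM replicate 1 or 3 (0.079 to 0.18), and Slc5a9 without APCCM replicate 2 or 3 or WTCM replicate 1 (0.065 to 0.1). The day 4 call of Slc5a3 was lost without any 1 of the 6 libraries compared (0.06 to 0.12), and with the replicate block or without the low count filter (0.056 to 0.059). The day 2 call of Slc2a6 was lost without any 1 of the APCCM replicates and WTCM replicates 1 and 2 (0.071 to 0.15), and with the block or without the filter (0.056 to 0.081), and DESeq2 gave it no adjusted p.

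Among the sodium-proton exchangers the apical members moved in opposite directions in APCCM. Slc9a3 had 9.29, 8.72 and 9.28 CPM in APCCM libraries, against 17.6, 18.2 and 21.6 CPM in WTCM libraries on day 4 (log2 fold change -1.08, SE 0.10, adjusted p = 5.2e-08). On day 2 Slc9a3 had 13.9, 11.98 and 11.0 CPM in APCCM libraries, against 19.3, 17.8 and 21.2 CPM in WTCM libraries (-0.66, SE 0.10, adjusted p = 4.6e-05). All APCCM libraries lay below all WTCM libraries. Slc9a2 had 48.3, 52.0 and 46.4 CPM in APCCM libraries, against 42.0, 39.4 and 38.2 CPM in WTCM libraries on day 4 (log2 fold change 0.30, SE 0.06, adjusted p = 8.1e-04). On day 2 it had 45.7, 50.1 and 49.6 CPM in APCCM libraries, against 39.0, 37.3 and 38.3 CPM in WTCM libraries (0.34, SE 0.06, adjusted p = 1.9e-04), again without overlap. Slc9a4 had 4.69, 4.64 and 4.34 CPM in APCCM libraries, against 2.28, 2.46 and 2.105 CPM in WTCM libraries on day 4 (log2 fold change 1.00, SE 0.15, adjusted p = 3.2e-05). On day 2 Slc9a4 had 5.47, 6.72 and 5.52 CPM in APCCM libraries, against 3.22, 3.47 and 3.73 CPM in WTCM libraries (0.76, SE 0.14, adjusted p = 3.2e-04). Slc9a4 was thus higher in every APCCM library than in any WTCM library, as it was in untreated mutants over untreated wild type.

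The anion exchangers were higher in APCCM or did not pass. Slc26a2, the sulfate carrier, had 150.3, 158 and 156 CPM in APCCM libraries, against 123, 107 and 112 CPM in WTCM libraries on day 4 (log2 fold change 0.44, SE 0.06, adjusted p = 1.1e-05). Day 2 levels were 170.5, 166 and 175 CPM in APCCM libraries, against 122, 113 and 106 CPM in WTCM libraries (0.59, SE 0.06, adjusted p = 1.6e-07). Neither day showed overlap. Slc26a6 had 169, 159 and 164 CPM in APCCM libraries, against 142, 121 and 156 CPM in WTCM libraries on day 4 (0.23, SE 0.07, adjusted p = 0.02). On day 2 Slc26a6 had 131, 134 and 123 CPM in APCCM libraries, against 107, 108 and 107 CPM in WTCM libraries (0.27, SE 0.07, adjusted p = 0.0073). Slc26a3 had 151, 146 and 154 CPM in APCCM libraries, against 124, 128 and 145 CPM in WTCM libraries on day 4 (0.18, SE 0.06, adjusted p = 0.043). The groups lay close together there without overlap, and on day 2 they overlapped, with 118 ± 5.36 CPM in APCCM against 123 ± 4.02 CPM in WTCM (SD, n = 3 each, adjusted p = 0.58). The day 4 call of Slc26a3 was lost without any 1 of APCCM replicates 1, 2 and 3 and WTCM replicates 1 and 2 (adjusted p 0.06 to 0.19). That of Slc26a6 was lost without APCCM replicate 1 or 3 or WTCM replicate 2 (0.058 to 0.16).

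Slc12a2 had 1445, 1302 and 1429 CPM in APCCM libraries, against 2118, 2023 and 1859 CPM in WTCM libraries on day 4. All APCCM libraries were lower there (log2 fold change -0.52, SE 0.06, adjusted p = 1.1e-06). On day 2 the groups overlapped, with 1588, 1527 and 1716 CPM in APCCM libraries, against 1631, 1677 and 1698 CPM in WTCM libraries (-0.05, SE 0.06, adjusted p = 0.62). Slc12a7 fell on both days, to 130.1 ± 6.50 CPM in APCCM against 149.7 ± 6.70 CPM in WTCM on day 4 (log2 fold change -0.20, adjusted p = 0.032) and 123 ± 6.74 CPM in APCCM against 143 ± 4.91 CPM in WTCM on day 2 (-0.22, adjusted p = 0.022). Slc12a8 rose to 102 ± 1.52 CPM in APCCM against 91.8 ± 7.23 CPM in WTCM on day 4 (0.15, adjusted p = 0.049) and 95.6 ± 1.13 CPM in APCCM against 78.7 ± 2.84 CPM in WTCM on day 2 (0.28, adjusted p = 5.7e-04). Slc12a9 passed on day 2 and just missed on day 4, with 30.5 ± 1.26 CPM in APCCM against 37.8 ± 0.823 CPM in WTCM on day 2 (-0.31, adjusted p = 0.03) and 30.9 ± 2.19 CPM in APCCM against 37.4 ± 3.25 CPM in WTCM on day 4 (-0.27, adjusted p = 0.052). The day 2 call of Slc12a9 was lost without any 1 of the 6 libraries compared (adjusted p 0.058 to 0.1) and with the replicate block (0.059). Slc12a7 did not pass on day 4 without APCCM replicate 1 or 3 or WTCM replicate 1 or 3 (adjusted p 0.077 to 0.16) or with the block (0.059), nor on day 2 without APCCM replicate 3 or WTCM replicate 1 or 3 (0.07 to 0.17). The day 4 call of Slc12a8 was lost without any 1 of the APCCM replicates and WTCM replicates 2 and 3 (adjusted p 0.081 to 0.23), and with the block or without the low count filter (0.078 to 0.098).

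The nucleoside carriers differed on day 2. Slc28a1 had 1.07, 1.22 and 1.06 CPM in APCCM libraries, against 3.40, 2.86 and 3.13 CPM in WTCM libraries on day 2 (log2 fold change -1.49, SE 0.21, adjusted p = 2.4e-05). Slc28a3 had 3.43, 3.42 and 2.64 CPM in APCCM libraries, against 7.59, 8.12 and 7.81 CPM in WTCM libraries on day 2 (-1.31, SE 0.15, adjusted p = 1.5e-06). For both, every APCCM library was far below every WTCM library. On day 4 Slc28a1 had 2.35, 3.66 and 3.42 CPM in APCCM libraries, against 2.71, 2.91 and 2.73 CPM in WTCM libraries (adjusted p = 0.57). Slc28a3 had 7.09, 6.76 and 7.59 CPM in APCCM libraries, against 5.58, 7.70 and 8.38 CPM in WTCM libraries on day 4 (adjusted p = 0.93), so the ranges of both overlapped on that day. Slc28a2 did not pass on either day, with 5.98 ± 0.0815 CPM in APCCM against 7.23 ± 0.929 CPM in WTCM on day 4 (adjusted p = 0.26) and 4.81 ± 0.489 CPM in APCCM against 4.07 ± 0.715 CPM in WTCM on day 2 (adjusted p = 0.36).

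**Figure D4:**
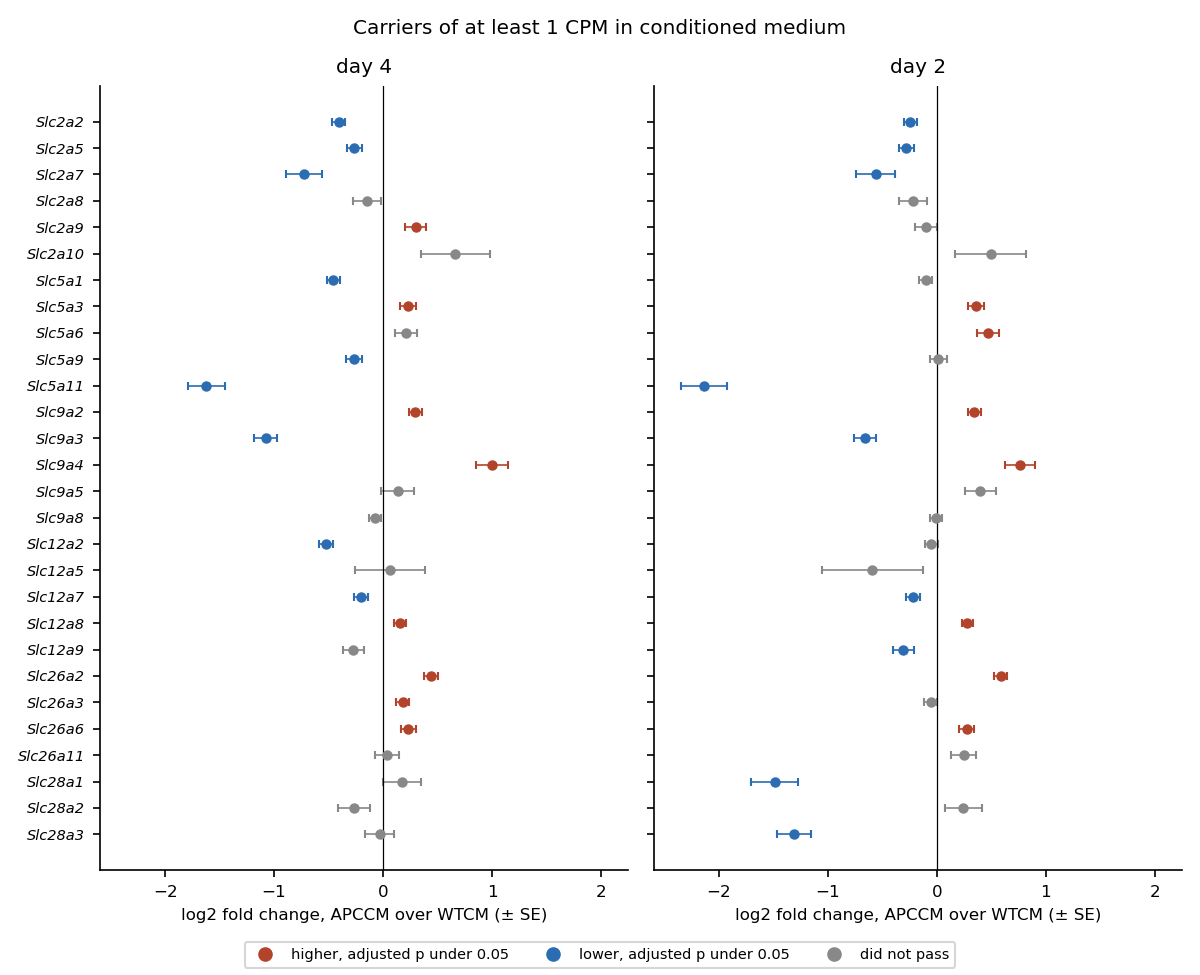
Log2 fold change of APCCM over WTCM on day 4 (left) and day 2 (right), with SE, for 28 carriers with a group mean of at least 1 CPM in conditioned medium. Slc5a11 and Slc9a3 lie left and Slc9a4 right of 0 on both days, while Slc28a1 and Slc28a3 lie far left on day 2 and near 0 on day 4.

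The untreated and conditioned medium comparisons share no library, and their called carriers can be set side by side. The 2 sets of libraries differed in sex-linked RNA. The X-linked Xist had 1939 to 3707 CPM and the Y-linked Ddx3y at most 0.163 CPM in untreated libraries. In conditioned medium libraries Xist had at most 11.4 CPM and Ddx3y 86.9 to 129 CPM. The 9 carriers lower in APCCM on day 4 were all also lower in untreated mutants (47.4% of the 19 lower there), and of the 9 lower on day 2 all but Slc12a9 were (42.1% of the 19). Of the 8 carriers higher in APCCM on day 4, Slc9a4 was also higher in untreated mutants, while Slc9a2, Slc12a8, Slc26a2, Slc26a3 and Slc26a6 were lower there. On day 2 Slc9a4 was again the shared higher carrier, while Slc5a6, Slc9a2, Slc12a8, Slc26a2 and Slc26a6 were lower in untreated mutants. The overlap was not tested, and the matching share over all genes is not given here.

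Of the 68 tested genes on the partner lists 23 passed in conditioned medium on day 4, 9 higher and 14 lower in APCCM, where 15.6% of all genes did (7.83% higher and 7.8% lower). On day 2, 19 passed, 12 higher and 7 lower, where 16.7% of all genes did (8.54% higher and 8.15% lower). Kinases of fructose breakdown stood out in the sugar handling list, with Khk and Tkfc past the threshold on both days. Khk (ketohexokinase) had 205 CPM in APCCM against 303 CPM in WTCM on day 4. On day 2 Khk had 158 CPM in APCCM against 218 CPM in WTCM. Tkfc (triokinase) had 784 CPM in APCCM against 1130.3 CPM in WTCM on day 4. On day 2 Tkfc had 551 CPM in APCCM against 839 CPM in WTCM. That list had 4 of 15 lower and 1 higher on day 4, including Glyctk at 3.00 CPM in APCCM against 4.63 CPM in WTCM, and 2 lower and 3 higher on day 2, including Fbp1 at 38.0 CPM in APCCM against 29.2 CPM in WTCM. Of the sodium pump and its coupled channels 6 of 14 were lower and 1 higher on day 4, and 3 lower and 1 higher on day 2. The chloride channel Ano1 was the higher one, at 37.5 CPM in APCCM against 12.6 CPM in WTCM on day 4 and 42.7 CPM in APCCM against 19.4 CPM in WTCM on day 2. Kcne3 was lower on both days (28.9 CPM in APCCM against 43.5 CPM in WTCM and 49.1 CPM in APCCM against 67.6 CPM in WTCM), as was the weakly expressed Aqp8 on day 4. Partners of NHE3 and the anion exchangers had 4 of 16 higher and 2 lower on day 4, with Guca2a at 33.4 CPM in APCCM against 23.0 CPM in WTCM, Slc4a4 at 205 CPM in APCCM against 159.8 CPM in WTCM and Car12 at 25.7 CPM in APCCM against 33.2 CPM in WTCM. They had 5 higher and 0 lower on day 2, with Car2 at 8.97 CPM in APCCM against 5.18 CPM in WTCM, Guca2a at 39.3 CPM in APCCM against 24.6 CPM in WTCM and Guca2b at 118 CPM in APCCM against 80.6 CPM in WTCM. Of the 8 tested genes of the WNK-SPAK list 1 passed on day 4, Stk39 at 76.8 CPM in APCCM against 90.3 CPM in WTCM. On day 2, 0 passed. Nucleoside handling had 3 of 15 higher and 1 lower on day 4, with Upp1 at 4.65 CPM in APCCM against 8.41 CPM in WTCM, Ada at 16.1 CPM in APCCM against 11.2 CPM in WTCM and Tk1 at 57.8 CPM in APCCM against 47.4 CPM in WTCM. It had 3 higher and 2 lower on day 2, with Nt5e at 1.08 CPM in APCCM against 0.347 CPM in WTCM, Upp1 at 4.62 CPM in APCCM against 6.37 CPM in WTCM and Ada at 20.0 CPM in APCCM against 16.2 CPM in WTCM. Enterocyte markers summed to 7409.9 to 8073 CPM in APCCM and 8427 to 9271 CPM in WTCM libraries on day 4, and to 5770.3 to 5986 CPM in APCCM and 5963 to 6418 CPM in WTCM libraries on day 2. Within that list Anpep ran the other way from the sum, with a mean of 932 CPM in APCCM against 555 CPM in WTCM on day 4 and 838 CPM in APCCM against 470.05 CPM in WTCM on day 2. Alpi had 916 CPM in APCCM against 852 CPM in WTCM on day 4 and 669.7 CPM in APCCM against 715 CPM in WTCM on day 2, while Sis, Fabp2, Apoa4 and Lct had lower means in APCCM on both days. Distal small intestine markers summed to 34.4 to 38.2 CPM in APCCM and 24.0 to 27.3 CPM in WTCM libraries on day 4, and to 39.6 to 43.7 CPM in APCCM and 25.0 to 29.2 CPM in WTCM libraries on day 2. Most of that sum was Guca2a, also on a partner list. The others were low, with Slc51b at 2.101 CPM in APCCM against 2.18 CPM in WTCM on day 4 and 2.20 CPM in APCCM against 1.92 CPM in WTCM on day 2, and Slc10a2 at 0.315 CPM in APCCM against 0.355 CPM in WTCM on day 4 and 0.519 CPM in APCCM against 0.227 CPM in WTCM on day 2. Fabp6 was at 0 in all of these groups but WTCM on day 2, which had 0.0332 CPM. Their part in the carriers' differences was not tested.

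The hexose carriers Slc5a1, Slc2a2 and Slc2a5 were higher on day 4 than on day 2 in both kinds of library. Among APCCM libraries 15 of 38 carriers passed, 10 higher and 5 lower on day 4, against 23.9% of all genes (12.2% higher and 11.7% lower). Among WTCM libraries 13 passed, 11 higher and 2 lower, against 24.1% of all genes (12.5% higher and 11.6% lower). The median log2 fold change of the 38 was 0.10 in both, and 0.00 over all genes. The 2 comparisons share no library, and 7 carriers passed in the same direction in both, 46.7% of the 15 and 53.8% of the 13. How many of all genes did so is not given here, and the overlap of carriers was not tested against it. Slc2a2, Slc2a5, Slc5a1, Slc5a11 and Slc26a6 were higher on day 4 in both, and Slc5a3 and Slc9a4 were lower in both.

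Slc5a1 rose on day 4 in APCCM libraries by 0.27 on the log2 scale (1125 ± 90.7 on day 4 against 936 ± 15.9 CPM on day 2, SD, n = 3 each, SE 0.06, adjusted p = 0.0018). In WTCM libraries it rose by 0.62 (1542 ± 144 CPM on day 4 against 1006 ± 16.4 CPM on day 2, SE 0.06, adjusted p = 7.6e-08). All day 4 libraries were above all day 2 libraries of their title group. Slc2a2 rose by 0.20 in APCCM (75.4 ± 3.58 CPM on day 4 against 65.8 ± 1.47 CPM on day 2, adjusted p = 0.023) and by 0.36 in WTCM libraries (99.9 ± 3.62 CPM on day 4 against 77.8 ± 2.80 CPM on day 2, adjusted p = 1.2e-04). Slc2a5 rose by 0.34 (65.0 ± 3.15 CPM on day 4 against 51.3 ± 3.06 CPM on day 2, adjusted p = 8.8e-04) and by 0.33 (78.0 ± 9.77 CPM on day 4 against 62.3 ± 1.50 CPM on day 2, adjusted p = 0.0012). Slc26a6 rose by 0.34 (164 ± 5.44 CPM on day 4 against 129 ± 5.70 CPM on day 2, adjusted p = 5.8e-04) and by 0.38 (139.6 ± 17.7 CPM on day 4 against 107 ± 0.532 CPM on day 2, adjusted p = 2.1e-04). Slc5a11 rose by 1.05 (1.84 ± 0.331 CPM on day 4 against 0.884 ± 0.0817 CPM on day 2, adjusted p = 0.0019) and by 0.54 (5.69 ± 0.474 CPM on day 4 against 3.91 ± 0.518 CPM on day 2, adjusted p = 0.011). The inositol importer Slc5a3 fell by 0.47 (26.8 ± 0.729 CPM on day 4 against 37.0 ± 3.60 CPM on day 2, adjusted p = 3.9e-05) and by 0.34 (22.9 ± 0.259 CPM on day 4 against 28.9 ± 0.148 CPM on day 2, adjusted p = 0.0018). Slc9a4 fell by 0.37 (4.56 ± 0.189 CPM on day 4 against 5.90 ± 0.703 CPM on day 2, adjusted p = 0.043) and by 0.61 (2.28 ± 0.178 CPM on day 4 against 3.47 ± 0.256 CPM on day 2, adjusted p = 0.0059).

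Other carriers passed between days in APCCM libraries but not in WTCM libraries, or the reverse. In APCCM libraries Slc26a3 rose by 0.35 (150.3 ± 4.30 on day 4 against 118 ± 5.36 CPM on day 2, adjusted p = 1.5e-04), Slc2a9 by 0.50 (22.4 ± 1.77 CPM on day 4 against 15.96 ± 1.68 CPM on day 2, adjusted p = 6.6e-04) and Slc12a5 by 1.55 (1.07 ± 0.385 CPM on day 4 against 0.358 ± 0.105 CPM on day 2, adjusted p = 0.0066). Slc9a3 fell by 0.43 (9.10 ± 0.326 CPM on day 4 against 12.3 ± 1.46 CPM on day 2, adjusted p = 0.0053) and Slc9a5 by 0.51 (8.20 ± 1.51 CPM on day 4 against 11.6 ± 1.31 CPM on day 2, adjusted p = 0.013). In WTCM libraries Slc28a2 rose by 0.82 (7.23 ± 0.929 on day 4 against 4.07 ± 0.715 CPM on day 2, adjusted p = 4.5e-04) and Slc5a9 by 0.38 (27.2 ± 0.919 CPM on day 4 against 20.9 ± 1.21 CPM on day 2, adjusted p = 7.4e-04). Slc9a8, Slc12a8 and Slc26a11 rose there by 0.19, 0.22 and 0.32 (adjusted p = 0.014, 0.0037 and 0.039). For none of these 10 did the difference between the title groups' day changes itself pass. Slc9a2 and Slc26a2 did not pass between days in either title group. Of the 68 partner genes tested 29 passed in APCCM libraries (20 higher and 9 lower on day 4) and 28 in WTCM libraries (21 higher and 7 lower), where 23.9% and 24.1% of all genes did. In sugar handling 8 of 15 genes rose and 0 fell in APCCM libraries, with G6pc at 68.4 on day 4 against 25.2 CPM on day 2 and the disaccharidase Sis at 5324 CPM on day 4 against 3733 CPM on day 2. In WTCM libraries 9 rose and 1 fell, with G6pc at 59.8 CPM on day 4 against 23.3 CPM on day 2, Txnip at 1021 CPM on day 4 against 551 CPM on day 2 and Sis at 6317 CPM on day 4 against 4098 CPM on day 2. Of the other 4 lists, in APCCM and in WTCM libraries, 6 of 16 and 5 of 16 NHE3 and anion exchanger partners rose and 2 and 0 fell. For the sodium pump and its coupled channels 2 and 4 of 14 rose and 3 and 2 fell. For the WNK-SPAK list 1 and 0 of 8 rose and 1 and 1 fell, and in nucleoside handling 3 of 15 rose and 3 fell in both.

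Some day calls rested on single libraries. In APCCM libraries Slc2a2 did not pass without day 2 replicate 1 or 2 or day 4 replicate 1 (adjusted p 0.058 to 0.12), Slc9a3 without day 2 replicate 1 (0.052), and Slc9a5 without day 2 replicate 2 or day 4 replicate 3 (0.071 to 0.1). Slc9a4 was lost there without day 2 replicate 2 or any day 4 replicate, in DESeq2 and without the low count filter (0.071 to 0.19). In WTCM libraries Slc5a11 was lost without day 2 replicate 3 (0.066), and Slc26a11 without day 2 replicate 1 or 2 or any day 4 replicate, in DESeq2 and without the filter (0.069 to 0.16). Slc9a8 was lost there without day 2 replicate 1 or 2 or day 4 replicate 3 (0.057 to 0.087).

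The test of whether the APCCM to WTCM difference itself changed between the days picked out 4 of the 38 carriers, 2 higher and 2 lower, against 2.13% of all genes (0.884% higher and 1.24% lower). Slc28a1 and Slc28a3 rose on day 4 in APCCM libraries, by 1.49 (SE 0.21, adjusted p = 1.6e-05) and 1.18 on the log2 scale (SE 0.16, adjusted p = 5.6e-06). In WTCM libraries their day changes were -0.17 (adjusted p = 0.54) and -0.10 (adjusted p = 0.64). The difference between the title groups' day changes was 1.66 for Slc28a1 (SE 0.28, adjusted p = 0.001) and 1.28 for Slc28a3 (SE 0.21, adjusted p = 6.6e-04). In both genes the 3 APCCM libraries of day 2 stood alone at a low level. Slc12a2 was lower by 0.21 on day 4 in APCCM libraries (1392 ± 78.5 on day 4 against 1610.1 ± 96.7 CPM on day 2, adjusted p = 0.014) and higher by 0.26 in WTCM libraries (1999.9 ± 131 CPM on day 4 against 1669 ± 34.0 CPM on day 2, adjusted p = 0.0029). The difference of these changes was -0.47 (SE 0.09, adjusted p = 0.0022). The APCCM part of it did not pass without day 2 replicate 3 (adjusted p = 0.076) or day 4 replicate 2 (0.092). Slc5a1 rose in both title groups, and its day change was smaller in APCCM libraries by 0.35 (SE 0.08, adjusted p = 0.022). That call was lost without any 1 of APCCM day 2 replicate 1, WTCM day 2 replicates 1 and 3, APCCM day 4 replicate 2, and WTCM day 4 replicates 1 and 3 (adjusted p 0.054 to 0.088). Of the 68 partner genes tested 6 passed the same test. Fxyd3, Stk39 and Txnip had -0.40, -0.37 and -0.40, Guca2b and Car12 with -0.65 and -0.45, and Cda with 0.38.

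**Figure D5:**
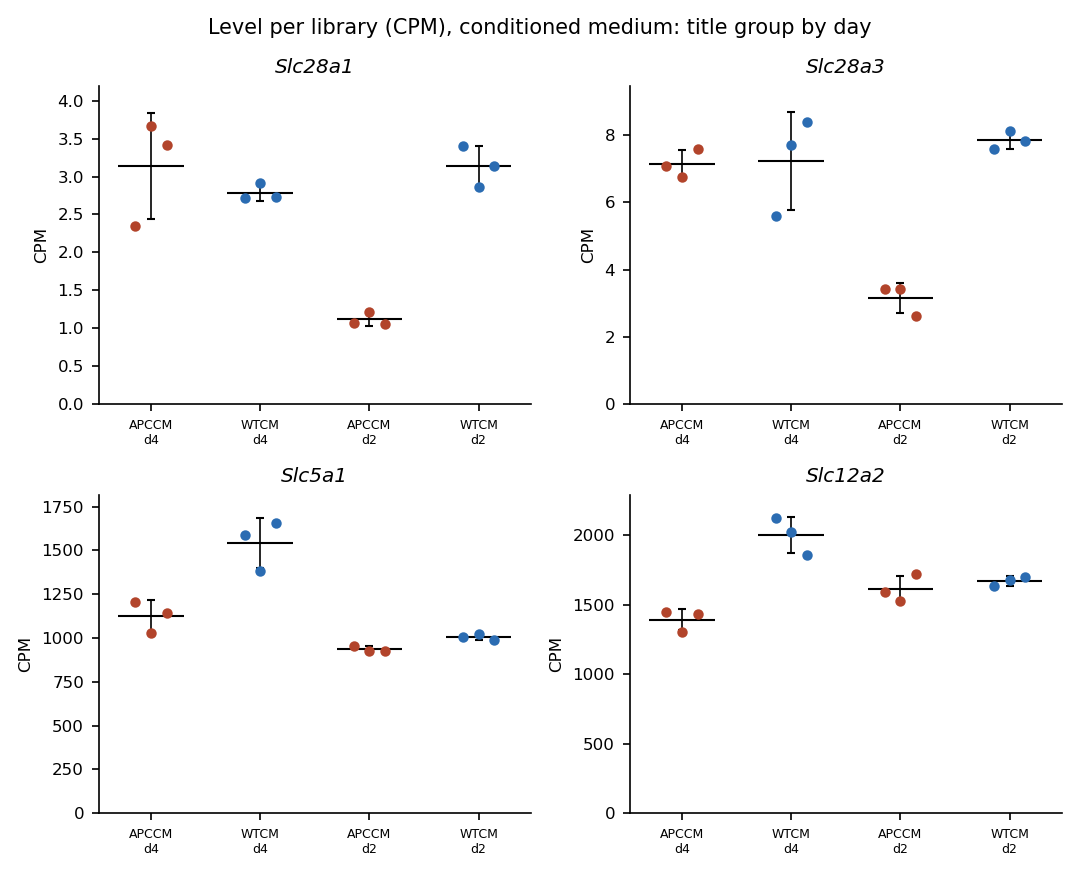
Level per library (CPM, points) in conditioned medium of the 4 carriers whose difference between APCCM and WTCM libraries changed between the days, with group mean (bar) and SD (whiskers). Slc28a1 and Slc28a3 are lowest in APCCM day 2 libraries, and Slc5a1 and Slc12a2 are highest in WTCM day 4 libraries.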

How the data were processed

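RNA of 16 organoid samples was made into rRNA-depleted libraries, per the labels' protocols. Reads without a feature were 4.78 to 7.32% in untreated and 14.4 to 19.2% in conditioned medium libraries, and histone RNA differed as well. Whether the preparation differed between these sets was not tested. The authors deposited raw whole-number counts per Ensembl gene for each library. Trimmomatic 0.36, HISAT2 2.1.0 and HTSeq 0.6.1p1 with GRCm38 were used, per the submitters' processing notes; strand setting and annotation release: not given in the sources used here. The 5 summary lines were left out (4.78 to 19.2% of reads had no feature and 26.5 to 38.9% had several alignments). GENCODE M21 gave a symbol to 45229 of 46078 genes (98.2%).

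Counts were scaled by TMM (0.898 to 1.26), and CPM are counts divided by the scaled library size, times 1e6. Differences were tested with edgeR 4.0.16 (R 4.3.3, limma 3.58.1), glmQLFit and glmQLFTest, in 1 fit of 6 groups without covariates, after filterByExpr (16510 genes tested, 10 residual degrees of freedom, common biological coefficient of variation 5.96%). Benjamini-Hochberg adjustment ran over all genes tested, with a threshold of 0.05. Standard errors are the log2 fold change over the root of the F statistic. The code was tested on simulated data. Pairs of libraries of a group differed beyond counting noise, with a chi-square per degree of freedom of 39.9 and 42.2 for the 2 pairs that hold WTCM day 4 replicate 1 and 3.30 to 6.08 for the other 12. Alternatives were RLE size factors, no filter, protein-coding totals, a replicate block, each medium class alone, DESeq2 1.42.0, a threshold of 0.01 and leaving out each library. Counting intervals are exact at 95% and floors are 3 counts over a group; both cover counting error only.

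Named carriers were, in each comparison, at most the 12 largest called changes without overlap and at least 1 CPM, plus 12 carriers with a textbook gut role. Other called carriers were added after their values were seen. The carriers, the 5 partner lists (76 genes) and the markers were chosen with earlier results of these data known. Counts cover all carriers tested, and 3 carriers and a few partner and marker genes are not reported by name here.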

Additional observations from a re-analysis of the deposited data

Results flagged for a closer look

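For 4 carriers the difference between APCCM and WTCM libraries was itself different on day 4 and on day 2 (edgeR's quasi-likelihood test of that difference, Benjamini-Hochberg adjustment over all genes, 3 libraries in each of the 4 groups). It was 1.66 on the log2 scale for Slc28a1 and 1.28 for Slc28a3, which were lower in all 3 APCCM libraries than in all 3 WTCM libraries on day 2 and overlapped on day 4. It was -0.47 for Slc12a2, which overlapped on day 2 and was lower in all 3 APCCM libraries on day 4. It was -0.35 for Slc5a1, lower in all 3 APCCM libraries on both days and past the threshold on day 4. This call of Slc5a1 was lost in 6 of the fits that left out a single library (adjusted p 0.054 to 0.088).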

How the results depend on the processing

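Of 1106 alternatives of the 93 named values, 1035 kept direction and side of the threshold, 58 no longer passed and 3 newly passed. The other 10 changed sign and stayed short of the threshold. No value changed sign while past the threshold in either fit. Called carriers added later, such as Slc9a8 in untreated organoids, Slc2a6 on day 2 and Slc5a3 on day 4, are outside this tally. Lost calls of those carriers are given above. The number of carriers past the threshold ranged, when single libraries were left out, from 27 to 30 in untreated organoids (30 with all libraries), 13 to 16 for APCCM against WTCM on day 2 (17), 10 to 14 on day 4 (17), 13 to 14 for the days in APCCM (15), 11 to 12 for the days in WTCM (13) and 3 to 4 for the difference between days (4). Under the other settings the ranges were 26 to 30, 13 to 18, 10 to 18, 11 to 16, 10 to 13 and 3 to 4, in the same order. The day 4 count fell to 10 at an adjusted p under 0.01. With the replicate block the counts were 29, 15, 14, 15, 13 and 4. Deviations of same-numbered libraries had correlations of -0.0492 to 0.0529 over 18 pairs in conditioned medium and -0.149 in untreated libraries. The highest were the 3 pairs of APCCM day 4 with APCCM day 2 libraries, at 0.0456 to 0.0529. With 2 libraries in each untreated group, both pairs there give the same value, whose sign depends on the numbering. Such values cannot decide whether the numbers pair the libraries. With the untreated numbers crossed, an alternative chosen after seeing the data, 30 passed. Over all genes, 351 passed the test of the difference between days, and 551 did with each medium class fitted alone. With RLE size factors the median log2 fold change of all genes was at most 0.0131 in any comparison, and with TMM at most 0.0044. Depth limits carriers under about 1 CPM, above all in the shallower untreated libraries.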
